A study of Komagataella phaffii with 32 samples.

Results

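MIT1 and TRM1 are 2 of the 5040 genes measured in RNA of the yeast Komagataella phaffii (also called Pichia pastoris) after a shift to alkaline medium. They were chosen by symbol, because earlier results on these data showed their RNA to be higher at pH 8.0 in wild type. Levels are given for all 32 libraries. The strains were crz1 (PJA-001, genotype label crz1_559), mutated in the factor Crz1, which calcineurin activates, rim101 (PJA-007, genotype label rim101_117), mutated in the alkaline pH factor Rim101, and the wild type X-33 (WT), from which both mutants derive. The series text names the wild type GS115 where the sample labels name X-33. Cultures grew at 28 °C with 20 g/L glycerol as carbon source and were moved to fresh medium holding the buffer TAPS at 50 mM. T0 was collected at once in medium of pH 5.5, and T15, T30 and T60 after 15, 30 and 60 min at pH 8.0. Each time had 3 crz1, 2 rim101 and 3 WT libraries. The series asks what Crz1 and Rim101 contribute to the response to alkaline medium. No library at pH 5.5 was taken at the later times, so pH, time after resuspension and growth cannot be told apart. The labels give separate libraries and do not say whether these were separate cultures, so p-values measure the spread between libraries.

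In fungi, alkaline medium activates the transcription factor Rim101 by proteolytic processing, and raises cytosolic calcium, which activates calcineurin and through it Crz1. In Saccharomyces cerevisiae, MIT1 encodes a transcription factor of the WOR1 family that acts in pseudohyphal growth. Trm1 of the same species is the enzyme that dimethylates a guanosine at the junction of the D and anticodon arms of many tRNAs. In work on K. phaffii the symbols Mit1 and Trm1 have also been used for zinc-cluster activators of methanol utilisation genes.

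The annotation in the authors' deposited table placed the pair in different classes. MIT1 (PAS_chr3_0251, chromosome 3, 504046 to 505203, plus strand, 1158 bases) was described there as a regulatory protein independent of cAMP. TRM1 (PAS_chr2-1_0090, chromosome 2, 160918 to 162453, plus strand, 1536 bases) was described as a tRNA (guanine) dimethyltransferase, an enzyme and not a regulator. Neither row was described as a methanol regulator, so the names are used here as the file gives them. Coordinates are those of the file and equal those of the RefSeq assembly ASM2700v1. Neither span overlapped another gene. The nearest neighbours of both genes lie on the opposite strand, and since the libraries were not directional their reads are not separated by strand.

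Levels are in RPKM, the authors' read counts divided by gene length and by the mapped reads of the library. The depth read from the spacing of low values was 4.95 to 16.5 M reads in 30 libraries (median 7.70 M), and 2 libraries had no single spacing. Between 837 and 1423 genes were listed at exactly 0 in each library, 458 of them in all 32. Because MIT1 itself had about 47 reads in 1 WT library at T0 and 0 in its replicates, a listed 0 is given as such and not as absence of RNA. The libraries were of 2 types: in 9, all at pH 8.0, the median of the tested genes was 46.6 to 56.6 RPKM, against 21.0 to 35.4 RPKM in the other 23. The median change of all tested genes in WT was 0.17, 0.62 and 0.65 (log2) at T15, T30 and T60 as deposited. With median-ratio scaling between libraries it was 0.02, 0.14 and 0.12.

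MIT1 RNA was near 0 at pH 5.5, high in crz1 and WT within 15 min of pH 8.0, and listed at 0 in every rim101 library. In bulk RNA, a change in every cell and a change in the share of cells that hold the RNA cannot be told apart. In crz1 its level was listed at 0 in 1 T0 library and was 4.82 and 3.57 RPKM in the others. At T15 the crz1 libraries held 198, 345 and 462 RPKM, at T30 114, 275 and 228 RPKM, and at T60 103, 151 and 141 RPKM. All 9 crz1 libraries at pH 8.0 were thus far above all 3 at T0, and the levels at 30 and 60 min overlapped.

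In rim101, MIT1 was listed at 0 in all 8 libraries, from T0 through T60. The file does not settle whether a listed 0 is 0 reads. If it is, 3 reads of MIT1 would have been worth 0.157 to 0.464 RPKM in the 7 rim101 libraries with a known depth, a limit that covers counting error only. In WT, MIT1 stood at 3.17 RPKM in T0 replicate 1 and was listed at 0 in the other 2. The first value corresponds to about 47 reads. WT had 286, 248 and 270 RPKM at T15, 100.4, 135 and 206 RPKM at T30, and 102, 84.6 and 157 RPKM at T60. No WT library at pH 8.0 overlapped any at T0 or any of rim101.

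**Figure D1:**
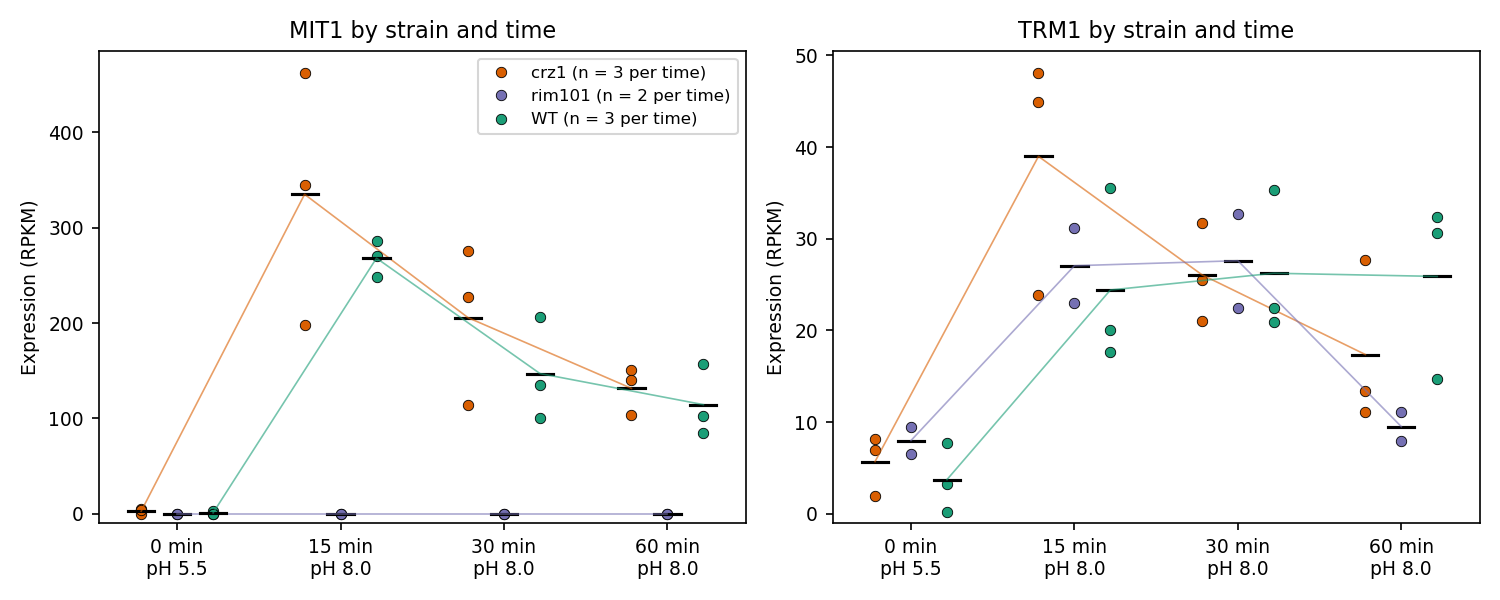
RPKM of MIT1 (left) and TRM1 (right) on linear axes by time after the shift, with 1 point per library, coloured by strain, and a black bar at each group mean. MIT1 is at 0 in all 8 rim101 libraries and between 84.6 and 462 RPKM in the crz1 and WT libraries at pH 8.0, while the TRM1 points of the 3 strains overlap at most times.

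The highest MIT1 means were those of T15. They were 335 ± 132 RPKM in crz1 and 268 ± 18.9 RPKM in WT (SD, n = 3 each). Next came 206 ± 83.1 RPKM in crz1 and 147 ± 54.0 RPKM in WT at T30, then 132 ± 25.1 RPKM in crz1 and 114 ± 37.5 RPKM in WT at T60 (SD, n = 3 each). Each of these 6 groups overlapped the next in the order, so no neighbours among them stood apart by their ranges. The lowest of them, WT at T60, lay wholly above every T0 group. The T60 mean was 39.3% of the T15 mean in crz1 and 42.7% in WT. In WT at T60 the libraries with the higher median held 84.6 and 102 RPKM, against 157 RPKM in the other. No WT library at T15 was of the higher-median type. In crz1 that type was present at both times, at 198 RPKM at T15 and 103 RPKM at T60. The part of the library type in these shares was not tested. On the scale of log2(RPKM + 1) the change since T0 was 6.73, 6.02 and 5.45 in crz1 at T15, T30 and T60, and 7.38, 6.46 and 6.12 in WT (SE 0.54 each). These changes chose the gene and are given without a test, and they are not bounds on a fold, since T0 libraries were at 0.

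The comparison of strains did not choose the genes, although it shares the WT libraries with that choice. It was tested with limma over 4226 genes, with Benjamini-Hochberg adjustment in each comparison and a threshold of 0.05. The p-values against WT at pH 8.0 are therefore not independent of the choice of the genes. MIT1 was lower in rim101 than in WT at all 3 times of pH 8.0, with 0 in both rim101 libraries of each time. At T15 the difference was -8.07 (log2(RPKM + 1), SE 0.61, 95% interval -9.32 to -6.81, adjusted p by limma 2.7e-09), in a comparison in which 1.06% of the genes passed. At T30 it was -7.15 (adjusted p by limma 1.26e-08), where 1.51% of the genes passed, and at T60 -6.80 (adjusted p by limma 4.8e-08), where 1.66% passed. At T0 the difference was -0.69 and did not pass (95% interval -1.94 to 0.57, adjusted p by limma 1), and 0.118% of the genes did. No fold is given, because the rim101 libraries are listed at 0. For the same reason each difference at pH 8.0 is the WT level with its sign turned, and that level chose the gene.

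MIT1 did not pass the test between crz1 and WT at any time. The differences were 0.89 at T0 (95% interval -0.23 to 2.01), 0.24 at T15 (-0.88 to 1.36), 0.45 at T30 (-0.67 to 1.57) and 0.23 at T60 (-0.90 to 1.35), with adjusted p by limma of 0.74, 0.854, 1 and 0.963. In these comparisons 0.071%, 0.568%, 0.426% and 0.26% of the genes passed. The intervals therefore allow a crz1 level at T15 between 0.88 lower and 1.36 higher on the log2 scale. The 8 rim101 zeros lower the spread pooled for this gene. In a fit of the crz1 and WT libraries alone, added after seeing the data, the adjusted p by limma at the 4 times was 0.806, 0.869, 1 and 0.976.

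The mutants were also set against each other with no WT library in the contrast. MIT1 was higher in crz1 than in rim101 by 8.31 at T15 (SE 0.61, adjusted p by limma 1.48e-09), by 7.60 at T30 (4.12e-09) and by 7.03 at T60 (1.95e-08). The shares of genes that passed were 3.45%, 3.95% and 1.96%. At T0 the difference was 1.58 (95% interval 0.32 to 2.83, adjusted p by limma 0.966), with 0.331% of the genes passing.

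The response, the mean of the 3 times of pH 8.0 minus T0, was also set side by side between strains. Since it contains the change in WT that chose the genes, it is given as a description with no p for them. For MIT1 the response of rim101 minus that of WT was -6.65 (SE 0.70) on the scale of log2(RPKM + 1), in a comparison in which 32 genes, or 0.757%, passed. The response of crz1 minus that of WT was -0.59 (SE 0.63). In that comparison 0% of the genes passed, and 99 had an unadjusted limma p under 0.05.

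**Figure D2:**
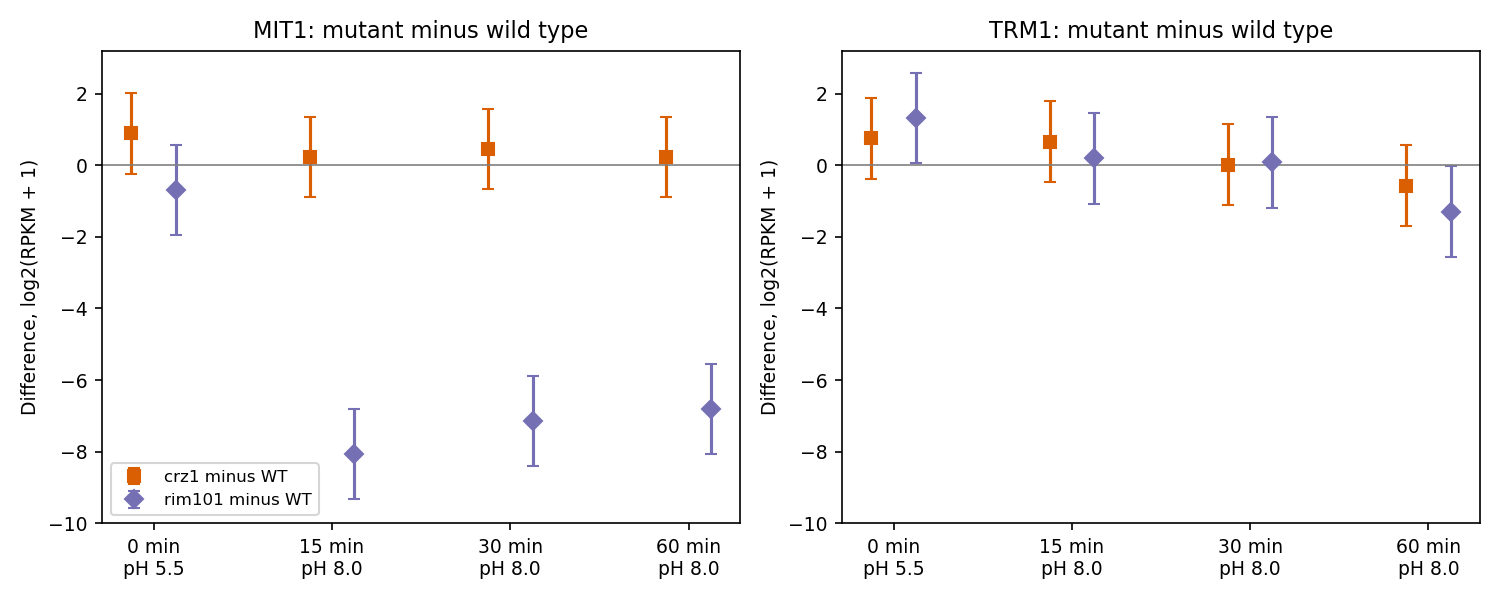
Differences of mutant minus WT in log2(RPKM + 1) for MIT1 (left) and TRM1 (right) at each time, crz1 as squares and rim101 as diamonds, with 95% limma intervals as bars. For MIT1 the rim101 intervals at pH 8.0 lie between -9.32 and -5.55, and the crz1 intervals include 0 at every time, whereas for TRM1 no difference passed.

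Few genes were both listed at 0 across rim101 and above 0 in every crz1 and WT library at pH 8.0. Only 4 of the 5040 genes were at 0 in all 8 rim101 libraries and above 0 in all 18 crz1 and WT libraries at pH 8.0. They were picked out after their values were seen and carry no test. Beside MIT1 (84.6 to 462 RPKM in those 18) they were ZRT1, a plasma membrane zinc transporter (78.7 to 438 RPKM), FET4-1, a low-affinity iron transporter (5.05 to 90.5 RPKM), and PAS_chr2-1_0189, annotated to respiratory growth (0.119 to 39.5 RPKM). In all, 557 genes were at 0 in all 8 rim101 libraries, 458 of which were also at 0 in the other 24.

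The neighbours of MIT1 on the chromosome did not share its values. SAP30, a subunit of the Rpd3 histone deacetylase complex that lies 738 bases upstream on the opposite strand, ranged from 21.9 to 77.0 RPKM in rim101, 24.0 to 105 RPKM in crz1 and 28.6 to 119 RPKM in WT. TGL1-1, which lies 73 bases downstream on the opposite strand, reached at most 0.287 RPKM in rim101 and was listed at 0 in all crz1 and WT libraries. Of the neighbours of TRM1, KGD1, a subunit of 2-oxoglutarate dehydrogenase 1087 bases upstream, was 108 to 339 RPKM in crz1, 115 to 266 RPKM in rim101 and 102 to 313 RPKM in WT. PAS_chr2-1_0091, 362 bases downstream, was 3.52 to 54.7 RPKM in crz1, 10.2 to 55.2 RPKM in rim101 and 5.42 to 63.8 RPKM in WT.

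RIM101 mRNA itself was 24.3 to 42.1 RPKM in the rim101 libraries at pH 8.0, 87.9 to 131 RPKM in crz1 and 103 to 151 RPKM in WT. CRZ1 mRNA at pH 8.0 was 21.6 to 54.6 RPKM in crz1 and 20.4 to 34.3 RPKM in WT. Since a mutated gene can still be transcribed, these levels do not check the genotypes.

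TRM1 RNA was lower at pH 5.5 than at 15 and 30 min of pH 8.0 in all 3 strains. In the crz1 and WT libraries at pH 8.0 its RPKM was at most 48.1, below the lowest MIT1 value there of 84.6. In crz1 the T0 libraries held 1.98, 8.20 and 6.93 RPKM, the T15 libraries 48.1, 44.9 and 23.9 RPKM, the T30 libraries 31.7, 21.1 and 25.5 RPKM, and the T60 libraries 27.7, 13.4 and 11.1 RPKM. Every crz1 library at pH 8.0 was above all 3 at T0, and the highest values were at T15.

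In rim101 TRM1 was 6.54 and 9.46 RPKM at T0, 23.0 and 31.2 RPKM at T15, 32.7 and 22.5 RPKM at T30, and 11.1 and 7.94 RPKM at T60. The T60 values overlapped those of T0, which set this strain's last time apart from its T15 and T30. In WT TRM1 was 0.203, 7.76 and 3.24 RPKM at T0, 20.1, 17.6 and 35.6 RPKM at T15, 35.3, 22.5 and 20.9 RPKM at T30, and 32.3, 30.6 and 14.7 RPKM at T60. All WT libraries at pH 8.0 were above all at T0, and the 3 later times overlapped each other. The lowest WT value, in T0 replicate 1, corresponds to 4 reads.

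The group means of TRM1 were 5.70 ± 3.29, 39.0 ± 13.2, 26.1 ± 5.34 and 17.4 ± 8.99 RPKM in crz1 at T0, T15, T30 and T60 (SD, n = 3 each). In rim101 they were 8.00 ± 2.07, 27.1 ± 5.80, 27.6 ± 7.27 and 9.52 ± 2.24 RPKM (SD, n = 2 each). In WT they were 3.73 ± 3.80, 24.4 ± 9.74, 26.2 ± 7.89 and 25.9 ± 9.72 RPKM (SD, n = 3 each). Ordered by mean from crz1 at T15 down to WT at T0, each of the 12 groups overlapped the next.

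The mean at T60 as a share of that at T15 was 44.6% in crz1, 35.2% in rim101 and 106% in WT. The types of library differed between these groups. WT at T60 had higher-median libraries at 32.3 and 30.6 RPKM and another at 14.7 RPKM, while all WT libraries at T15 were lower-median. In rim101 a higher-median library was present at T15 (31.2 RPKM) and not at T60, and in crz1 at both times. The changes of TRM1 since T0 on the scale of log2(RPKM + 1) were 2.67, 2.15 and 1.51 in crz1 at T15, T30 and T60, 1.64, 1.66 and 0.23 in rim101, and 2.77, 2.90 and 2.84 in WT. The standard error was 0.55 for crz1 and WT and 0.67 for rim101. They are descriptions, since the gene was selected on this contrast.

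No comparison of strains passed for TRM1, and with both other scalings the sign turned for rim101 against WT at T15 and T30, crz1 against WT at T30 and crz1 against rim101 at T30. In rim101 against WT the difference was 1.32 at T0 (unadjusted p by limma 0.041, adjusted 1), 0.19 at T15, 0.08 at T30 and -1.29 at T60 (95% interval -2.56 to -0.03, unadjusted p by limma 0.0453, adjusted 0.38). At T60 both rim101 libraries were below all 3 WT libraries. In crz1 against WT the differences at the 4 times were 0.76, 0.66, 0.01 and -0.58, with adjusted p by limma of 0.815, 0.793, 1 and 0.956 and no interval that excludes 0. Between crz1 and rim101 they were -0.56, 0.46, -0.07 and 0.72 (adjusted p by limma 1, 1, 0.947 and 0.904). The response of rim101 minus that of WT was -1.66 (SE 0.71) and that of crz1 minus that of WT -0.73 (SE 0.63), given as a description for the reason above. Several of the intervals extend beyond 1 on the log2 scale, so differences of that size are not excluded, and a p that misses the threshold does not show that the strains have the same TRM1 level.

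The type of library moved with both genes. In the 6 groups holding both types, TRM1 was highest in the libraries with the higher median: in WT at T60, 30.6 and 32.3 RPKM against 14.7 RPKM, and in crz1 at T60, 27.7 RPKM against 11.1 and 13.4 RPKM. In the 5 groups where MIT1 was above 0 it went the other way, with 84.6 and 102 RPKM against 157 RPKM in WT at T60, and 198 RPKM against 345 and 462 RPKM in crz1 at T15. Both rim101 libraries at T60 were of the lower-median type, while WT at T60 held 2 of the higher. Without the 9 libraries, an alternative added after seeing the data, WT at T60 keeps 1 library, which is assumed to vary like the other groups. There the TRM1 difference of rim101 from WT at T60 was -0.60 (adjusted p by limma 1), and that of MIT1 was -7.30 (adjusted p by limma 0.000272). The part of the library type in the TRM1 values was not tested beyond this.

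**Figure D3:**
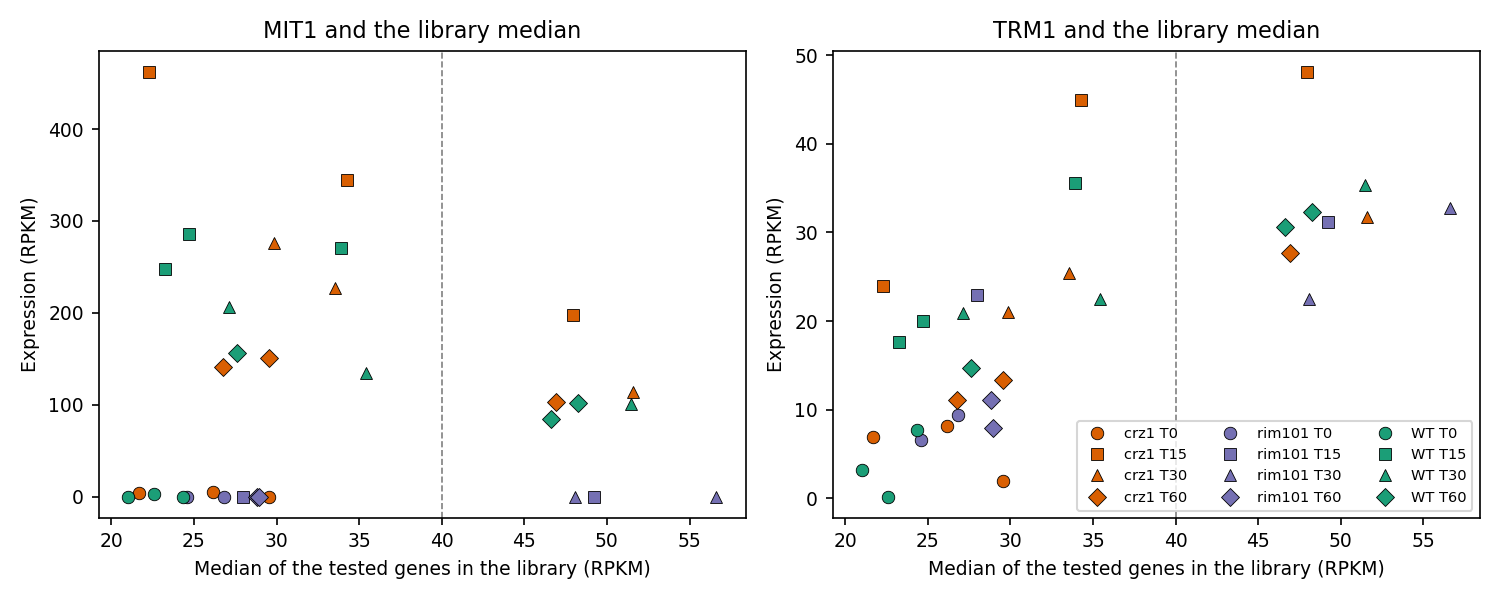
RPKM of MIT1 (left) and TRM1 (right) in each of the 32 libraries against the library's median RPKM over the tested genes, with colour for strain and shape for time; the dashed line is at 40 RPKM. The 9 libraries right of the line hold the highest TRM1 values of their groups where both types are present, and outside rim101 they hold the lowest MIT1 values of those groups.

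The authors' deposited table gives each group's log2 fold change over WT at T0. For MIT1 in the authors' deposited table it was 8.03, 7.11 and 6.50 in crz1 at T15, T30 and T60 (FDR 1.52e-07, 1.73e-06 and 2.8e-05), and 7.79, 6.67 and 6.21 in WT (FDR 8.04e-09, 8.51e-06 and 0.0002). In rim101 the authors' deposited table has -6.94, -6.79, -6.69 and -7.00 from T0 to T60 with FDR of 1, 0.913, 0.179 and 0.927, although these libraries are listed at 0. For TRM1 the authors' deposited table has 2.99, 2.27 and 1.73 in crz1 (FDR 0.0369, 0.229 and 0.663), 2.40, 2.04 and 1.11 in rim101 (FDR 0.498, 0.129 and 1), and 2.54, 2.29 and 2.18 in WT (FDR 0.105, 0.247 and 0.412). In the authors' deposited table only crz1 at T15 is thus under 0.05 for TRM1.

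Genes whose pattern was most like that of MIT1 were ranked by Pearson's r of log2(RPKM + 1) over the 32 libraries among 3316 genes, as a description. All points share the libraries and the 8 rim101 zeros. The 5 nearest were PHO89, a sodium-coupled phosphate transporter (r = 0.959), ZRT1 (0.953), RIM101 (0.949), FET4-1 (0.931) and YPS1-2, named for a yapsin family protease (0.928). At pH 8.0 PHO89 held 2452 to 5020 RPKM in crz1, 11.3 to 57.2 RPKM in rim101 and 2001 to 4953 RPKM in WT. YPS1-2 held 146 to 295 RPKM in crz1, 25.2 to 59.4 RPKM in rim101 and 225 to 521 RPKM in WT. At pH 8.0 all 5 were lower in every rim101 library than in any crz1 or WT library of pH 8.0. The ranking favours such genes, because the rim101 libraries entered it and MIT1 is low in all of them. The low levels are therefore not a result apart from the choice of the genes. RIM101 is also the gene mutated in that strain.

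Within the 18 crz1 and WT libraries at pH 8.0 the likeness was smaller. There r with MIT1 was 0.585 for PHO89, 0.773 for ZRT1, -0.42 for RIM101, 0.323 for FET4-1 and -0.18 for YPS1-2. The 3 genes most opposite to MIT1 over all libraries were PAS_chr2-1_0887 (r = -0.903), TMA10 (-0.901) and PHO84-2, named for a phosphate transporter (-0.878). TMA10 was 6.56 to 29.9 RPKM in rim101 at pH 8.0 and was listed at 0 in every crz1 and WT library there.

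The genes most like TRM1 were of another kind and included none of those. They were KRE33, an acetyltransferase of small-subunit ribosomal RNA (r = 0.978), MAK21, a factor of large ribosomal subunit assembly (0.975), RRP9, a protein of the U3 small nucleolar ribonucleoprotein (0.971), NOP12, a nucleolar protein of ribosomal RNA maturation (0.971), and RPA49, a subunit of RNA polymerase I (0.970). These roles are known from S. cerevisiae. At pH 8.0 KRE33 held 40.5 to 104 RPKM in crz1, 31.3 to 89.2 RPKM in rim101 and 37.8 to 83.7 RPKM in WT, so the strains overlapped. Within the 18 crz1 and WT libraries at pH 8.0, r with TRM1 stayed between 0.879 for MAK21 and 0.954 for RPA49. Over the 23 lower-median libraries it was between 0.964 for RRP9 and 0.981 for MAK21. The 3 most opposite genes were CCS1, a copper chaperone (r = -0.905), AAT1, an aspartate aminotransferase (-0.900), and PNC1, a nicotinamidase (-0.898). The choice of the 5 nearest depended on the measure. With Spearman's rho, 0 of the 5 remained among the nearest 5 of TRM1, though all were among its nearest 61. For MIT1, 3 of the 5 remained. The choice of the 3 most opposite did so too, with 0 of the 3 kept for either gene by Spearman's rho. With median-ratio scaling 2 of the 3 were kept for MIT1 and 0 for TRM1.

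**Figure D4:**
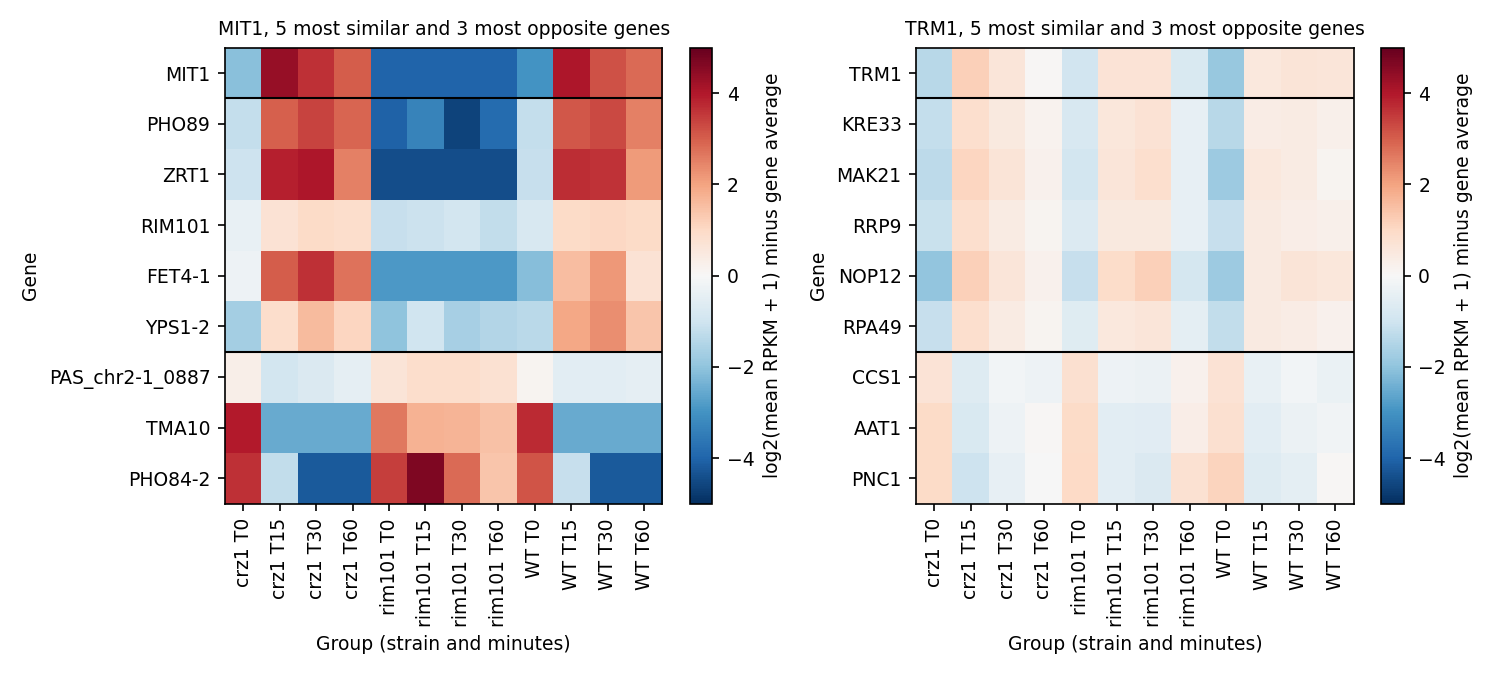
Mean levels by group for MIT1 (left) and TRM1 (right), their 5 most similar genes (middle block) and 3 most opposite genes (bottom block), as log2(mean RPKM + 1) minus the gene's average over the 12 groups; red is above and blue below it. The MIT1 block is blue across all rim101 columns, while the TRM1 block is blue at T0 in each strain and also at T60 in rim101.

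Other enzymes of tRNA modification were followed because the file places TRM1 among them. In WT, 20 of the 50 other members tested rose and 0 fell at T15, 25 rose and 1 fell at T30, and 22 rose and 1 fell at T60, by limma at an adjusted p under 0.05. Of all genes tested, 13.4% rose and 5.18% fell at T15, 24.1% and 4.07% at T30, and 26.9% and 4.61% at T60. The list's median change was 1.24, 1.36 and 1.42 (log2(RPKM + 1)), beside 0.17, 0.62 and 0.65 for all genes. With quantile normalization 19, 7 and 7 members rose, where 11.3%, 8.90% and 9.56% of all genes did. Without the higher-median libraries 25 rose at T15, 14 at T30 and 1 at T60, where 1 WT library was left and is assumed to vary like the other groups, beside 18.0%, 18.2% and 5.35% of all genes. Leaving out 1 WT library moved the count most for T0 replicate 1 (11, 11 and 4 rose at T15, T30 and T60) and T0 replicate 3 (13, 15 and 11). It fell to 13 without T15 replicate 3, to 13 without T30 replicate 1, and at T60 to 8 and 9 without T60 replicate 1 or 2.

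The 4 members named from this list had its largest passing changes. DUS4, a dihydrouridine synthase, was listed at 0 in all 3 WT libraries at T0 and held 18.5, 10.7 and 26.2 RPKM at T15 (difference 4.20, adjusted p by limma 0.0014). TRM5, the methyltransferase of the guanosine next to the anticodon, was 38.5, 37.0 and 4.51 RPKM at T60, against 0, 1.05 and 0 RPKM at T0 (difference 3.99, adjusted p by limma 0.00657). TRM8, a subunit of the 7-methylguanosine methyltransferase, was 126, 122 and 10.5 RPKM at T60, against 0, 25.4 and 0.851 RPKM at T0 (difference 3.95, adjusted p by limma 0.0197). UBA4, which activates the sulfur carrier Urm1, was listed at 0 in 2 WT libraries at T60 and was 8.31 RPKM in the other, against 62.7, 18.8 and 50.2 RPKM at T0 (difference -4.25, adjusted p by limma 0.00105).

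The T60 rises of TRM5 and TRM8 rested on WT replicates 1 and 2, both higher-median libraries. Without the higher-median libraries they did not pass (adjusted p by limma 0.221 and 0.52), while DUS4 at T15 and UBA4 at T60 passed (3.18e-08 and 0.0311). The UBA4 change was then -2.11 and rested on 1 WT library at T60. TRM8 also lost its call without WT T0 replicate 1, T0 replicate 3, T60 replicate 1 or T60 replicate 2. Of the 50 members, 26 were listed at 0 in at least 1 library.

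Between strains the tRNA modification list had a single call, TRM2, a uridine methyltransferase, named after its values were seen. It was 0.161 and 0.825 RPKM in rim101 at T30, against 9.09, 12.5 and 5.96 RPKM in WT at T30 (difference -2.76, adjusted p by limma 0.0264). This 1 call among 50 members is near the 1.51% of all genes that passed in this comparison. The call was lost without WT T30 replicate 1 or 2 and without either rim101 library, with adjusted p by limma up to 0.455, and with quantile normalization (0.0601).

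Regulators of filamentous growth were followed for MIT1. Of 20 other members tested in WT, 1 rose at T15, 3 at T30 and 3 at T60, and 0, 0 and 2 fell. Of all genes tested, 13.4%, 24.1% and 26.9% rose and 5.18%, 4.07% and 4.61% fell at these times. Counts as small as those of this list are not read against these shares. EFG1 was matched by its symbol alone, which names a regulator of morphology in Candida albicans. Whether this row is that regulator was not tested. EFG1 was 48.0, 51.8 and 7.68 RPKM at T60, against 0.109, 13.7 and 0.654 RPKM at T0 (difference 3.23, adjusted p by limma 0.0226). FLO11, a cell surface flocculin, was 233, 117 and 64.1 RPKM at T60, against 861, 608 and 241 RPKM at T0 (difference -2.05, adjusted p by limma 0.0162). PHD1, a transcription factor of pseudohyphal growth, fell by 1.59 at T60 (adjusted p by limma 0.0201), and FUS3, a mating kinase, rose by 1.58 at T30 (adjusted p by limma 0.0474). All 4 calls were lost without WT T0 replicate 1. EFG1 also lost its call without T0 replicate 3 or T60 replicate 1 or 2, FLO11 without T60 replicate 2 or 3, PHD1 without T0 replicate 3 or T60 replicate 1 or 2, and FUS3 without T0 replicate 3 or any T30 library. The highest adjusted p by limma were 0.109, 0.0794, 0.115 and 0.241 in that order. Without 1 of the WT libraries the list had 0 to 4, 1 to 4 and 1 to 5 rises at the 3 times, and with quantile normalization 0. The falls at T60 were 3 with either other scaling and 0 to 5 without 1 library, so with median-ratio scaling 1 rose and 3 fell there. Without the higher-median libraries EFG1 and PHD1 did not pass at T60 (changes of 1.53 and -0.28, adjusted p by limma 0.433 and 0.711), nor FUS3 at T30 (0.0586). In neither mutant did a member pass against WT, in comparisons in which 0.071% to 1.66% of all genes passed.

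The methanol lists were followed because the symbols MIT1 and TRM1 are used for methanol regulators elsewhere. Among 8 other methanol regulators tested in WT, 1 fell at T15, 0 passed at T30, and 1 rose and 1 fell at T60. Of 8 methanol utilisation enzymes 1 rose at T15, 1 at T30 and 0 at T60, and 0 fell. Of 13 peroxins, the proteins of peroxisome formation, 1, 1 and 2 rose and 1, 0 and 0 fell. Of all genes 13.4%, 24.1% and 26.9% rose and 5.18%, 4.07% and 4.61% fell at these times, and counts this small are not read against those shares. With median-ratio scaling 2 methanol enzymes fell at T15 and 0 rose at T30, and with quantile normalization 0 peroxins rose at any time. CTA1, the peroxisomal catalase, was 347, 240 and 502 RPKM in WT at T15, against 104, 36.1 and 82.1 RPKM at T0 (difference 2.34, adjusted p by limma 0.00148), and kept its call without each library in turn. INP1, a protein of peroxisome inheritance, rose by 1.93 at T60 (adjusted p by limma 0.00271), with an adjusted p of 0.126 without the higher-median libraries. PEX5 rose by 3.36 at T15 (adjusted p by limma 0.045), PEX2 rose by 2.14 at T60 (0.0294), PEX11 fell by 0.82 at T15 (0.0418) and the repressor subunit TUP1 rose by 0.62 at T60 (0.0165). PEX5 lost its call without any 1 of the 6 WT libraries compared, with adjusted p by limma up to 0.142. PEX2 lost it without T0 replicate 1 or 3 or T60 replicate 1 or 2 (up to 0.244), and PEX11 without T0 replicate 1 or 2 or T15 replicate 1 or 3 (up to 0.158). TUP1 lost it without T0 replicate 2 or T60 replicate 3 (up to 0.0794), and with median-ratio scaling (0.959).

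NRG1, a transcriptional repressor that S. cerevisiae Rim101 represses, was the member of these lists that differed between strains. Its level at T15 was 0, 0.247 and 9.50 RPKM in crz1, 499 and 505 RPKM in rim101, and 30.2, 34.7 and 18.6 RPKM in WT. By limma it was lower in crz1 than in WT by a difference of -3.57 (adjusted p 0.0274) and higher in rim101 by 4.17 (adjusted p 0.00874). At T60 it was 304 and 506 RPKM in rim101, against 13.7, 38.2 and 38.0 RPKM in WT (difference 3.80, adjusted p by limma 0.0161). The other NRG1 comparisons with WT did not pass. At T30 the differences were -2.70 in crz1 (adjusted p by limma 0.225) and 3.27 in rim101 (0.0609). For crz1 at T60 it was -0.85 (adjusted p by limma 0.956), and at T0 they were 0.02 in crz1 and 1.49 in rim101. In WT NRG1 was lower at T15 than at T0, with a change of -2.60 (adjusted p by limma 0.0196, and up to 0.0881 without T0 replicate 1 or T15 replicate 3). MIT1 was listed at 0 in all 8 rim101 libraries, and a link between MIT1 and NRG1 was not tested. Each NRG1 call between strains was lost in some fits without 1 library, with adjusted p by limma up to 0.252 for crz1 and up to 0.143 and 0.297 for rim101 at T15 and T60. The T15 libraries whose removal ended a call were WT replicates 1 and 2 and crz1 replicates 1 and 2 for crz1, and WT replicate 3 and either rim101 library for rim101. At T60 they were WT replicate 1 and either rim101 library. The crz1 call at T15 was also lost with quantile normalization (adjusted p by limma 0.0757) and without the higher-median libraries (0.0596). The rim101 call was lost at T15 with median-ratio scaling (0.0628) and quantile normalization (0.0993), and at T60 without the higher-median libraries (0.106). Methanol enzymes and peroxins had 0 calls against WT in either mutant. Between 0.071% and 1.66% of all genes passed in these comparisons, so 0 in lists this small is not read as a result.

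**Figure D5:**
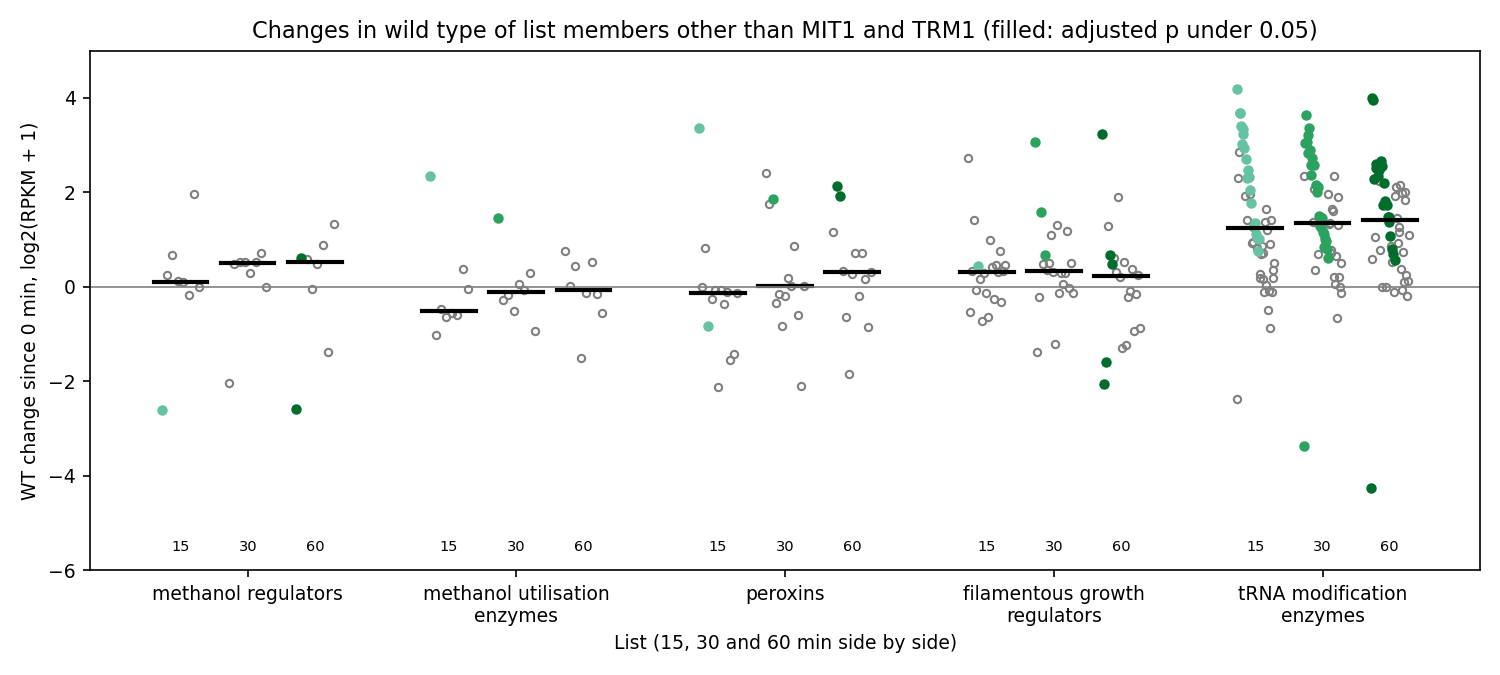
Changes since T0 in WT, in log2(RPKM + 1), of the members of 5 gene lists other than MIT1 and TRM1, at 15, 30 and 60 min, with 1 point per gene, filled where the limma adjusted p was under 0.05, and a black bar at the list median. The medians of the tRNA modification list lie at 1.24, 1.36 and 1.42, and UBA4 is its filled point at -4.25.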

How the data were processed

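RNA from 32 libraries of 3 strains in 12 groups was measured. RPKM per gene were computed by the authors and deposited on the linear scale. The labels' protocols give poly-A, non-directional libraries, and the tools in the submitters' processing notes are Bowtie2 and edgeR, without versions. No source used here gives the genome build. The authors' deposited comparison table gives, for 4581 genes, log2 fold changes over WT T0, p-values and FDR, which entered no test here. All 5040 identifiers matched RefSeq's table for ASM2700v1, with equal coordinates. Of the gene spans, 92.2% were multiples of 3, so lengths are close to coding lengths. All sample columns mapped to samples (0 unmapped).

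RPKM are not counts, so limma 3.58.1 (limma-trend, R 4.3.3) was fitted to log2(RPKM + 1), which understates changes of low genes. All 12 groups shared 1 fit (20 residual degrees of freedom, two-sided) over the 4226 genes with a mean of at least 1 RPKM. P-values were adjusted by Benjamini-Hochberg in each comparison, with a threshold of 0.05. The fit was tested on simulated data with independent libraries and 1 spread for all genes. The simulation held neither the types of library nor genes set to 0 in 1 strain, so it does not cover these features. Tables and plots used matplotlib 3.10.9, pandas 2.3.3 and numpy 2.4.6 under Python 3.11.15. Depth came from the spacing of low values, 94.9% to 99.0% of which lay within 0.1 of a whole read. A count model was not run, since 2 libraries had no single spacing and RPKM are already scaled.

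Genes, lists and tests were chosen with earlier results of these data known. MIT1 and TRM1 were selected on their time course, so neither it nor the difference in response between a mutant and WT carries a p. Named with them were the 5 most similar and 3 most opposite genes with a mean of at least 10 RPKM and a symbol or description, and up to 4 members per list with the largest passing change in WT. The 5 lists (methanol regulators, methanol utilisation enzymes, peroxins, filamentous growth and WOR1 family regulators, tRNA modification enzymes) were matched by symbol, without MIT1 and TRM1. Alternatives were median-ratio and quantile scaling, pseudocounts of 0.1 and 0.5, no filter, a replicate block and leaving out each library. Those added after seeing the data were leaving out the libraries with a median above 40 RPKM, fitting the crz1 and WT libraries alone, and leaving out each library for the list counts.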

Additional observations from a re-analysis of the deposited data

Results flagged for a closer look

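The change of MIT1 at pH 8.0 was set against that of WT in each mutant, and the difference was larger for rim101 than for crz1. The mean change over the 3 later times in rim101 minus that in WT was -6.65 on the scale of log2(RPKM + 1) (SE 0.70), with 0 listed in all 8 rim101 libraries and 84.6 to 286 RPKM in the 9 WT libraries at pH 8.0. The WT part of this difference chose the gene, so the value is a description and no p is given. It ranged from -8.98 to -6.07 over 26 alternatives, among which leaving out 1 library at a time gave -7.34 to -6.31. Every alternative holds the WT change that chose the gene. The range therefore shows how far the value moves with the processing and is not a test of it.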

How the results depend on the processing

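For MIT1 and TRM1, no comparison of strains changed its side of the threshold under any alternative run. The direction was kept in 190 fits with another setting and 203 fits without 1 library. It turned in 10 and 13, none of them past the threshold. These counts include fits of the differences in response, which are descriptions, so their side of the threshold is not read as a result. Over its alternatives, MIT1 in rim101 against WT had limma adjusted p of 3.38e-09 to 5.65e-05 at T15, 1.73e-08 to 3.71e-06 at T30 and 5.84e-08 to 0.000272 at T60. These p-values rest on the WT libraries that chose the gene. No rim101 library at T30 remained without the higher-median libraries, so that alternative has no value for T30 or the response of rim101. The turned values were as follows, where a value of 0 was counted as turned. Without the higher-median libraries, MIT1 in crz1 minus WT at T60 was -0.10 and TRM1 in rim101 minus WT at T15 was -0.020. The PEX2 change in WT at T60, which is not part of these counts, was 0 in the same alternative. With median-ratio scaling, TRM1 was -0.0097 in crz1 minus WT at T30, -0.14 and -0.29 in rim101 minus WT at T15 and T30, and 0.28 in crz1 minus rim101 at T30. With quantile normalization these 4 were -0.050, -0.29, -0.52 and 0.47. Without 1 library, MIT1 ranged from -0.035 to 0.58 in crz1 minus WT at T15 and from -1.03 to 0 in rim101 minus WT at T0. TRM1 ranged from -0.020 to 1.41 in crz1 minus WT at T0, -0.14 to 0.24 at T30, -0.020 to 0.49 in rim101 minus WT at T15, -0.18 to 0.35 at T30, -0.34 to 0.19 in crz1 minus rim101 at T30, and -1.38 to 0.050 in the response of crz1 minus WT. The cause was not tested. The replicate numbers were not taken to pair the samples, since the labels give no shared culture or day and only 15 of 28 same-numbered pairs had a correlation of deviations over 0.1 (range -0.78 to 0.903). All 7 pairs at T0 were over 0.1 (0.286 to 0.654), as were the 3 of crz1 with WT at T30 (0.454 to 0.903), while the 3 at T15 were negative, and 13 of 24 crz1 and WT libraries correlated best with their own number. With the replicate block, MIT1 in rim101 minus WT was -7.95 at T15, and TRM1 was -1.35 at T60 (limma adjusted p 0.176). The block gave 51, 75 and 97 calls in rim101 minus WT at T15, T30 and T60, where 45, 64 and 70 were found without it. Rises of tRNA modification enzymes in WT were 24, 18 and 12 with median-ratio scaling at the 3 times. The share of all genes that rose was then 14%, 13.6% and 13.2%. Members that fell numbered 1, 1 and 4, beside 9.06%, 8.57% and 11% of all genes. With median-ratio scaling 4 of the 5 genes most like MIT1 and 3 of the 5 most like TRM1 were the same. With 2 libraries per rim101 group and 3 elsewhere, TRM1 differences of 1.32 and -1.29 on the log2 scale did not pass.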
